A study of Mus musculus with 8 samples.

Results

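The genes described here were 9 components and regulators of the complement system (Hc, C3, C4b, C1s1, C1ra, Cfb, Cd55, Cd59a and Serping1), found by their symbols among the 54532 genes listed for lung endothelial cells (ECs). Hc was chosen because it rose strongly in hyperoxia, so its change is described without a test. The other 8 were chosen as complement genes and were tested. The libraries were bulk RNA-seq of ECs from wild-type (WT) mouse lungs at day 14. Pups were kept from P0 to P14 either in room air (normoxia, 21% O2, 4 libraries) or in hyperoxia (80% O2, 4 libraries), a mouse model of bronchopulmonary dysplasia. Per the study's methods, cells binding CD45-coated beads, that is leukocytes, were removed from the lung cell suspension and cells binding CD31-coated beads were kept, so the isolate was enriched for ECs and could hold RNA of other lung cells. Whether each library came from 1 pup or from pooled pups was not given in the sources used here.

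Complement is a cascade of plasma proteins that marks surfaces for removal. The C1 complex starts the classical pathway when C1r activates C1s, which cuts C4, mannose-binding lectins and ficolins start the lectin pathway, and all routes meet at C3 and then at C5. Cleaved C5 gives the anaphylatoxin C5a and the first subunit of the membrane attack complex. Most of these proteins are known as liver products, but epithelial, stromal, endothelial and immune cells of the lung also make some of them, and ECs carry membrane regulators that stop complement on their own surface.

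Of the 8 genes other than Hc, 7 were abundant enough to be tested. In 4 of these 7, namely C4b, C1s1, Cd59a and Serping1, every hyperoxia library lay above every normoxia library, against 35.4% of all genes tested whose groups did not overlap. Hc, chosen for its rise, also had groups that did not overlap. The same 4 genes passed an adjusted p of 0.05 in edgeR's quasi-likelihood test with Benjamini-Hochberg adjustment over 15564 genes. The components C4b and C1s1 and the regulators Serping1 and Cd59a all rose in hyperoxia, and none of the 7 fell past the threshold. Among all genes tested 35.6% passed, 18.5% higher and 17.1% lower. When the log2 fold change also had to reach 1 in size, C4b, C1s1 and Serping1 passed, against 6.98% of all genes (5.62% higher and 1.36% lower). The median log2 fold change of the 7 tested genes was 0.88, and that of all genes tested was -0.00.

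Libraries held 16098086 to 18300730 counts. Markers of ECs made up a similar part of every library. The summed level of 10 EC markers was 15945 to 16868 CPM (counts scaled to a common library total) in normoxia and 15501 to 16332 CPM in hyperoxia, and 3 of the markers were higher and 3 lower in hyperoxia by the adjusted p. Cdh5, the adhesion molecule of EC junctions, averaged 4121 CPM in normoxia and 4035 CPM in hyperoxia. Markers of other lung cells moved with the groups. All 10 markers of alveolar type 2 cells (summed level 252 to 355 CPM in normoxia and 806 to 2413 CPM in hyperoxia), all 8 of alveolar type 1 cells (78.9 to 99.2 and 170 to 485 CPM) and all 5 tested of 6 general epithelial markers (4.70 to 9.98 and 17.9 to 59.7 CPM) were higher in hyperoxia. So were 7 of 8 tested mural cell markers of a list of 9 (47.1 to 82.8 and 103 to 181 CPM), 5 of 9 tested fibroblast markers of a list of 10 (188 to 377 and 257 to 660 CPM) and the 1 tested of 4 mesothelial markers, Msln (0.0552 to 0.735 and 0.859 to 2.0 CPM over the 4). Of 9 macrophage or monocyte markers 2 were higher and 1 was lower (177 to 363 and 232 to 528 CPM). No tested marker of neutrophils (4 of 6 tested, 9.94 to 39.3 and 17.4 to 86.9 CPM), lymphocytes (7 of 7, 33.3 to 80.3 and 44.2 to 68.5 CPM) or airway epithelial cells (2 of 6, 1.65 to 3.20 and 2.61 to 3.38 CPM) passed. Krt5, a marker of airway basal cells, had no count in any library.

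In these marker sums hyperoxia 3 differed from the rest of its group. It had 806 CPM of alveolar type 2 markers, against 2120 to 2413 CPM in the others, 170 CPM of alveolar type 1 markers, against 436 to 485 CPM, and 257 CPM of fibroblast markers, against 491 to 660 CPM. Its EC marker sum of 16218 CPM lay within the range of the others. The part of other lung cells in the changes of the 9 genes was not tested. In bulk RNA, a shift in the share of a cell type and a shift in RNA per cell cannot be told apart. Values without hyperoxia 3 are given beside each of the 9 genes other than Cfb, which was not fitted.

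Sequence just before the start site is shown for the 3 genes with groups that did not overlap for which RefSeq windows (GRCm38.p6) were at hand, Hc, C1s1 and Cd59a, and for C3, the component on which all routes meet. Windows matched 6 of the 9 genes. C4b, Cfb and Serping1 had none. Each line gives the 250 bases upstream of the RefSeq start, on the strand of the gene, 5′ to 3′, with matches to a searched motif in capitals. The windows were chr2:35061413-35061662 (minus strand) for Hc, chr6:124542360-124542609 (minus) for C1s1, chr2:104095551-104095800 (plus) for Cd59a and chr17:57228137-57228386 (minus) for C3.
Hc: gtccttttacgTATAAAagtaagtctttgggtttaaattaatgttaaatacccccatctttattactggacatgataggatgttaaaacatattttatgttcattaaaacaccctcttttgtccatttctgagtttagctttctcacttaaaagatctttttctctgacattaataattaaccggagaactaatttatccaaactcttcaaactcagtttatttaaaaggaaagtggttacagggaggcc
C1s1: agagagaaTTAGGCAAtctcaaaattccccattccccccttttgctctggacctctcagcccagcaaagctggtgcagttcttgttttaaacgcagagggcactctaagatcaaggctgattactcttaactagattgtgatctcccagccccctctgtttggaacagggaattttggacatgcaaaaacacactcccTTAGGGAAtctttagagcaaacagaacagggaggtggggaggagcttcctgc
Cd59a: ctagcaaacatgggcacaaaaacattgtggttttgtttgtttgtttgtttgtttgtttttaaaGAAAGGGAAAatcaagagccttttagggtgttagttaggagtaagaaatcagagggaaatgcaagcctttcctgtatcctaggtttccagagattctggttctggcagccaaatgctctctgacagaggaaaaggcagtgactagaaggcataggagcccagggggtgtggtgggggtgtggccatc
C3: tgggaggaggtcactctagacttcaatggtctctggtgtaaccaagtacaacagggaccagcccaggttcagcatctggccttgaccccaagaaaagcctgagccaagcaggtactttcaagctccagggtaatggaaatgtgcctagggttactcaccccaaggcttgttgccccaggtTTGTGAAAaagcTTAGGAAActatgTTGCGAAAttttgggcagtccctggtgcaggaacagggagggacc
The motifs, searched on both strands, were those of the interferon-stimulated response element (GAAA, any 2 bases, then GAAA, in 2.98% of all 32851 windows), STAT (TTCNNNGAA, 7.02%), C/EBP (TTNNGNAA, 36.8%), AP-1 (TGANTCA, 6.75%), forkhead factors (TGTTTAC, 3.17%) and the TATA box (TATAAA, 12.4%).

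C3 held 3 C/EBP matches, 70 to 63, 58 to 51 and 45 to 38 bases upstream of the start, the last of which matched on both strands. C1s1 held 2, at 242 to 235 and 52 to 45 bases. RefSeq also lists a start of C1s1 that lies 38 bases inside the gene. Its window, not shown, held 1 C/EBP match, at 90 to 83 bases, which is the same stretch as the match at 52 to 45 bases. Cd59a held an interferon-stimulated response element match at 187 to 178 bases. The windows of C1ra and Cd55, whose groups overlapped, are not shown. That of C1ra held C/EBP matches at 72 to 65 and 29 to 22 bases, and that of Cd55 held no match to any motif. The Hc window held 1 TATA box match, 239 to 234 bases upstream, and its G and C content of 31.2% was below the median of 52.4% over all windows. No match overlapped that of another motif. The RefSeq start of Hc lay 26 bases inside the gene as the files place it, and the starts used for the other 3 windows shown were the same in both. A match describes letters only.

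The first set of components comprised C1ra and C1s1, the serine proteases of the C1 complex. C1s1 (ENSMUSG00000038521, chromosome 6, 124530345 to 124542359, minus strand, GRCm38) stood at 1.59, 0.854, 0.951 and 0.939 CPM in normoxia 1 to 4 and at 3.37, 4.36, 1.60 and 2.50 CPM in hyperoxia 1 to 4. Every hyperoxia library was above every normoxia library, but hyperoxia 3 lay just above normoxia 1. The log2 fold change was 1.45 (SE 0.333, edgeR adjusted p = 0.00632), from a mean of 1.08 ± 0.342 to 2.96 ± 1.18 CPM (SD, n = 4 each). Without hyperoxia 3 it was 1.65 (edgeR adjusted p = 0.0015). C1s1 was a low gene, with 75 counts in all normoxia libraries and 209 in all hyperoxia libraries. Of its exon bases, 18.4% are shared with Gm16567 on the opposite strand, which was listed at 0 in every library.

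C1ra (ENSMUSG00000055172, chromosome 6, 124512405 to 124523443, plus strand), the neighbour of C1s1 on chromosome 6, did not rise with it. Its level was 8.20, 11.3, 11.0 and 11.4 CPM in normoxia and 11.0, 7.14, 8.81 and 7.38 CPM in hyperoxia. The groups overlapped, and the highest hyperoxia library, hyperoxia 1, equalled normoxia 3 within rounding. The log2 fold change of -0.29 (SE 0.161) did not pass (edgeR adjusted p = 0.189). Without hyperoxia 1 it was -0.43 with an edgeR adjusted p of 0.0486, and without hyperoxia 3 it was -0.30 (adjusted p = 0.227). C1ra shares 26.3% of its 150-base transcript windows with its copy C1rb, to which 2 counts were given in all 8 libraries against 1342 for C1ra. C1s1 shares 2.46% with C1s2, which had 19 counts against 284.

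Of the 14 other initiation genes of the list, 7 were tested, 3 were higher and none was lower in hyperoxia. Over all genes tested 18.5% were higher and 17.1% lower, and this share stands beside the count of every role below too. With so few genes tested per role, these counts are no result about a role. Masp1, a serine protease of the lectin pathway, stood at 3.37, 2.67, 3.08 and 2.10 CPM in normoxia and at 10.0, 13.6, 17.1 and 13.8 CPM in hyperoxia. Its libraries did not overlap, and hyperoxia 3 was the highest. Its log2 fold change was 2.28 (SE 0.191, edgeR adjusted p = 9.2e-06). Fcna, which encodes the recognition molecule ficolin A, went from 0.329 ± 0.186 to 1.35 ± 0.919 CPM (SD, n = 4 each), with a log2 fold change of 2.02 (SE 0.555, edgeR adjusted p = 0.0160). Fcna was a low gene, with 23 counts in all normoxia libraries and 96 in all hyperoxia libraries. It had 6, 2, 10 and 5 counts in normoxia and 16, 10, 22 and 48 in hyperoxia. It thus passed the filter on low counts mainly through hyperoxia, the group where it was high. A filter of 1 CPM in 4 libraries left Fcna untested. Colec12, a membrane collectin, went from 34.5 ± 4.51 to 53.9 ± 4.29 CPM, with a log2 fold change of 0.65 (SE 0.0936, edgeR adjusted p = 0.000377). The 3 chains of C1q, the recognition molecule of C1, are named here after their values were seen. C1qa, C1qb and C1qc had log2 fold changes of 0.19, 0.29 and 0.30 with SEs of 0.278, 0.290 and 0.325, and none passed (edgeR adjusted p = 0.632, 0.471 and 0.508). Leaving out 1 library at a time moved these values between 0.0031 and 0.36, 0.11 and 0.49, and 0.084 and 0.51, and none passed.

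**Figure D1:**
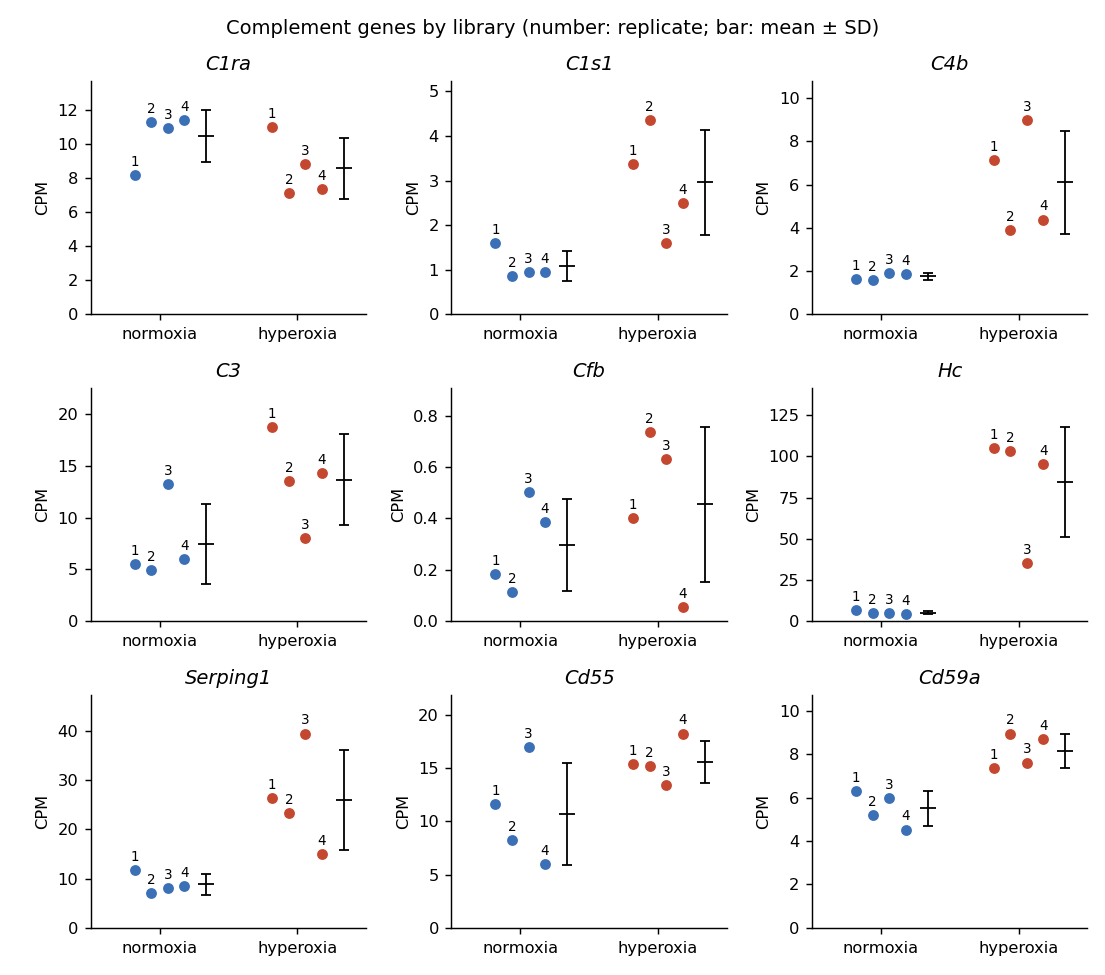
CPM of the 9 genes in each library, with replicate numbers beside the points (normoxia blue, hyperoxia red) and bars for the mean ± SD of 4 libraries, each panel on its own axis from 0. Hyperoxia 3 is the lowest hyperoxia library for Hc (35.0 CPM), C3, C1s1 and Cd55 and the highest for C4b (8.99 CPM) and Serping1 (39.4 CPM).

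The next set held C4b and C3, the components cut in turn after C1, and Cfb of the alternative pathway. C4b (ENSMUSG00000073418, chromosome 17, 34728380 to 34743882, minus strand) lay at 1.65, 1.59, 1.90 and 1.88 CPM in normoxia and at 7.14, 3.91, 8.99 and 4.38 CPM in hyperoxia. The normoxia libraries were tightly grouped, with a coefficient of variation (CV) of 8.90%, and the hyperoxia libraries were spread, with a CV of 39.2%. C4b rose from 1.76 ± 0.156 to 6.10 ± 2.39 CPM (SD, n = 4 each), a log2 fold change of 1.79 (SE 0.273, edgeR adjusted p = 0.000536). Without hyperoxia 3, its highest library, the log2 fold change was 1.54 (edgeR adjusted p = 0.000721).

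C4a, the mouse copy of C4b, shares 7.48% of the 150-base windows of C4b and is listed as a processed transcript. Its level was 0.857 to 1.76 CPM in normoxia and 1.71 to 2.10 CPM in hyperoxia, and its log2 fold change was 0.43 (SE 0.242, edgeR adjusted p = 0.192). Reads of the shared windows could have been given to either copy. Of the counts of both copies, C4b held 65.9, 47.5, 55.7 and 54.8% in normoxia and 80.6, 65.1, 82.6 and 68.7% in hyperoxia, so the share in normoxia 1 was above that in hyperoxia 2.

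C3 (ENSMUSG00000024164, chromosome 17, 57203970 to 57228136, minus strand) did not pass the test. Its level was 5.51, 4.95, 13.2 and 6.02 CPM in normoxia and 18.8, 13.5, 8.07 and 14.3 CPM in hyperoxia. The groups overlapped through normoxia 3, the highest of its group, and hyperoxia 3, the lowest of its group. The means were 7.42 ± 3.88 and 13.7 ± 4.39 CPM (SD, n = 4 each), with a log2 fold change of 0.88 (SE 0.325, edgeR adjusted p = 0.0570). Both of those libraries decided the call. Without normoxia 3 the log2 fold change was 1.31 (edgeR adjusted p = 0.00316), and without hyperoxia 3 it was 1.06 (adjusted p = 0.0220). Normoxia 3 also had the highest normoxia sums of macrophage or monocyte markers (363 CPM, against 177 to 268 CPM), neutrophil markers (39.3 CPM, against 9.94 to 20.3 CPM) and lymphocyte markers (80.3 CPM, against 33.3 to 55.4 CPM), and their part in its C3 level was not tested.

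Cfb (ENSMUSG00000090231, chromosome 17, 34856374 to 34862518, minus strand), the protease of the alternative pathway convertase, was too low for the edgeR test. It had 3, 2, 9 and 7 counts in normoxia and 7, 13, 11 and 1 counts in hyperoxia, 21 against 32 in all. The lowest library of all was hyperoxia 4 and the groups overlapped throughout. Means were 0.297 ± 0.180 and 0.455 ± 0.301 CPM, with an exact two-sided permutation p of 0.4 (n = 4 each, smallest possible p 0.0286), so no difference was detectable at these counts. Of its exon bases, 79.5% are shared with Gm20547 on the same strand, which was listed at 0 in every library. Reads on shared bases could have been left out of the count, and how the counting treated them is not given in the sources used here, so the level of Cfb may be too low. Of the 4 other genes of this set, 2 were tested (C4a and Cfp) and neither passed.

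The terminal components begin with C5, which Hc encodes (ENSMUSG00000026874, chromosome 2, 34983331 to 35061438, minus strand, 44 merged exons). Hc stood at 6.55, 4.84, 4.64 and 4.53 CPM in normoxia and at 105.0, 103, 35.0 and 95.3 CPM in hyperoxia. All hyperoxia libraries were far above all normoxia libraries, and hyperoxia 3 lay at 0.346 times the mean of the other 3. The mean went from 5.14 ± 0.949 to 84.6 ± 33.3 CPM (SD, n = 4 each), a ratio of 16.5. The log2 fold change was 4.05 (SE 0.338), and 4.30 without hyperoxia 3. Gm13449 on the opposite strand shares 1.21% of the exon bases of Hc and averaged 0.148 CPM. Hc made up 0.933 to 1.40% of the counts of all 56 genes of the complement list in normoxia and 6.02 to 16.2% in hyperoxia. For each C3 count there were 0.352 to 1.19 Hc counts in normoxia and 4.34 to 7.63 in hyperoxia.

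Hc and the alveolar and general epithelial marker sums were lowest in hyperoxia 3 among the hyperoxia libraries, while the airway epithelial sum was lowest in hyperoxia 2 (2.61 CPM, against 2.86 CPM in hyperoxia 3). In hyperoxia 3 the sum of alveolar type 2 markers was 0.350 times the mean of the other 3 hyperoxia libraries, that of alveolar type 1 markers 0.372 times and that of general epithelial markers 0.316 times. Sums of other cells were also lowest there, with fibroblast markers at 0.445 times, mesothelial markers at 0.480 times, macrophage or monocyte markers at 0.525 times, mural markers at 0.689 times and lymphocyte markers at 0.805 times the mean of the others. The low macrophage or monocyte sum of hyperoxia 3 rests largely on Lyz2, the most abundant marker of that list. Lyz2 stood at 315, 252, 101 and 232 CPM in hyperoxia 1 to 4, within sums of 528, 384, 232 and 416 CPM. Which cells this Lyz2 RNA came from was not tested. The EC marker sum was 1.02 times and the airway epithelial sum 0.935 times that of the others. Relative to Sftpc, the surfactant protein gene of alveolar type 2 cells, Hc had 4.40, 4.91, 4.57 and 6.07% of its CPM in normoxia and 7.38, 7.33, 8.36 and 7.72% in hyperoxia. These hyperoxia ratios were close to each other, hyperoxia 3 included, and all lay above the normoxia ratios. The order differed for Slc34a2, another of the 10 alveolar type 2 markers. Hc and Slc34a2 stood at 4.53 and 6.63 CPM in normoxia 4 and at 105.0 and 195 CPM in hyperoxia 1. By this reference normoxia 4 lay above every hyperoxia library, and the other normoxia libraries lay below them. Slc34a2 was used here after its values were seen. Relative to Epcam, a general epithelial marker low in normoxia, Hc had 53.5, 9.44, 6.38 and 13.7 CPM per CPM of Epcam in normoxia. In hyperoxia the values were 18.6, 22.2, 22.7 and 19.1. The groups overlapped only through normoxia 1, the highest of all, whose ratio rests on 2 Epcam counts. Epcam had 2, 9, 13 and 6 counts in normoxia 1 to 4, so the normoxia ratios are poorly defined. Epcam and this ratio are given after their values were seen. The part of these cells in the Hc level was not tested.

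Of the 5 protein-coding genes with a mean of at least 5 CPM whose log2 CPM profile over the 8 libraries was nearest to that of Hc, by the root mean square difference of values centred on each gene's mean, 4 are given here, among 10419 genes compared. They were Irx1 (0.252), Slc34a2 (0.258), Ndnf (0.266) and Myh14 (0.274). Slc34a2 is the phosphate transporter of alveolar type 2 cells and was one of their 10 markers. It stood at 14.8, 11.7, 10.9 and 6.63 CPM in normoxia and at 195, 190.5, 54.1 and 156 CPM in hyperoxia. These genes were picked for their likeness to Hc over these libraries, so their pattern is no separate evidence.

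**Figure D2:**
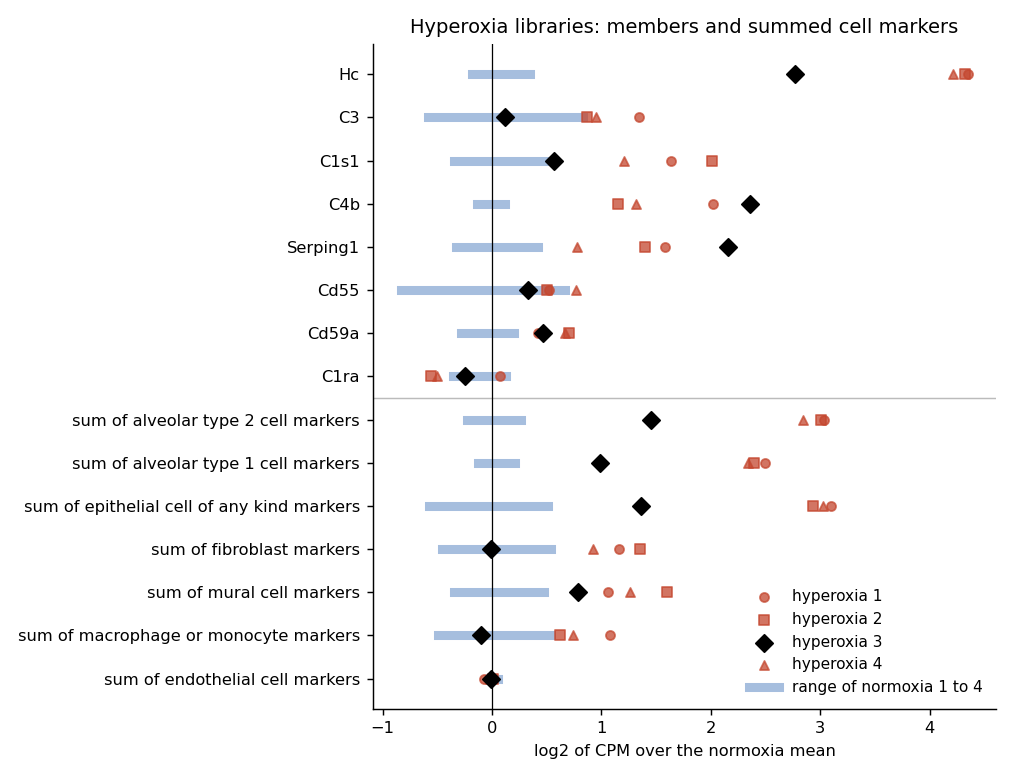
Level of 8 of the 9 genes and of summed cell markers in each hyperoxia library as log2 of CPM over the normoxia mean, with hyperoxia 3 as black diamonds, the other hyperoxia libraries in red and the normoxia range as blue bars. Hyperoxia 3 lies to the left of the other hyperoxia libraries for Hc, C3, C1s1 and Cd55. The same holds for every marker sum plotted except that of ECs. For C4b and Serping1 hyperoxia 3 lies to their right.

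Of the 6 other terminal genes, 3 were tested and 1 passed. C6, which binds the product of C5 in the membrane attack complex, stood at 0.184, 0.740, 0.392 and 0.221 CPM in normoxia and at 2.46, 1.64, 0.630 and 2.05 CPM in hyperoxia. As for Hc, hyperoxia 3 was the lowest hyperoxia library, and here it lay below normoxia 2. The log2 fold change was 2.12 (SE 0.498, edgeR adjusted p = 0.00711), and 2.39 without hyperoxia 3 (adjusted p = 0.00137). C6 had only 3, 13, 7 and 4 counts in normoxia and 43, 29, 11 and 37 in hyperoxia. It passed the filter on low counts through hyperoxia, the group where it was high. A filter of 1 CPM in 4 libraries left C6 untested. C7, named after its values were seen, had a log2 fold change of 0.82 (SE 0.415, edgeR adjusted p = 0.152) and passed without normoxia 1 (1.27, adjusted p = 0.0303) or without hyperoxia 3 (1.08, adjusted p = 0.0302). C8a and C8b had no count in any library, and C9 had 2 counts in all, both in hyperoxia 4. These 3 were also named after their values were seen.

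Among secreted regulators, Serping1 rose. It encodes the C1 inhibitor, which inactivates C1r and C1s and also acts on the contact system. Serping1 (ENSMUSG00000023224, chromosome 2, 84765387 to 84775444, minus strand) lay at 11.8, 7.0, 8.0 and 8.45 CPM in normoxia and at 26.3, 23.2, 39.4 and 15.1 CPM in hyperoxia. The groups did not overlap, and hyperoxia 3 was the highest library, at 1.83 times the mean of the other 3. The mean went from 8.82 ± 2.09 to 26.0 ± 10.1 CPM (SD, n = 4 each), with a log2 fold change of 1.56 (SE 0.264, edgeR adjusted p = 0.00102). Without hyperoxia 3 the log2 fold change was 1.29 (adjusted p = 0.00100). C4b shared this pattern, with hyperoxia 3 at 1.75 times the mean of the other 3, opposite to Hc, C3 (0.519 times) and C1s1 (0.470 times).

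The other secreted regulators moved in both directions. Of 10, 3 were tested, 1 was higher and 1 was lower in hyperoxia. Clu, which encodes clusterin, a chaperone that binds terminal complexes, went from 80.4 ± 15.5 to 144 ± 14.9 CPM, with a log2 fold change of 0.84 (SE 0.124, edgeR adjusted p = 0.000409) and no overlap. Cfi encodes factor I, the protease that cuts active C3 and C4 fragments. It was lower in hyperoxia, with 0.735, 1.31, 1.06 and 1.10 CPM in normoxia and 0.171, 0.340, 0.572 and 0.555 CPM in hyperoxia. Its groups did not overlap, and its log2 fold change was -1.35 (SE 0.369, edgeR adjusted p = 0.0156). With 12 to 23 counts per library in normoxia and 3 to 10 in hyperoxia, it passed the filter on low counts through normoxia, the group where it was high, and a filter of 1 CPM in 4 libraries left it untested.

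Membrane regulators protect the cells that carry them. Cd59a (ENSMUSG00000032679, chromosome 2, 104095801 to 104115354, plus strand) encodes a lipid-anchored protein that blocks assembly of the membrane attack complex. It stood at 6.31, 5.18, 5.99 and 4.53 CPM in normoxia and at 7.37, 8.95, 7.61 and 8.71 CPM in hyperoxia. The groups did not overlap, and hyperoxia 3 lay among the other libraries of its group. The rise from 5.50 ± 0.803 to 8.16 ± 0.786 CPM (SD, n = 4 each) was small and had little spread, with a log2 fold change of 0.57 (SE 0.136, edgeR adjusted p = 0.00784), and 0.60 without hyperoxia 3 (adjusted p = 0.0122). Its copy Cd59b shared no 150-base window with it and had 34 counts in all, against 960.

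Cd55 (ENSMUSG00000026399, chromosome 1, 130439027 to 130462744, minus strand), decay-accelerating factor, breaks up the convertases that cut C3 and C5. Its level was 11.6, 8.25, 17.0 and 6.02 CPM in normoxia and 15.4, 15.2, 13.5 and 18.3 CPM in hyperoxia. Normoxia 3 lay within the hyperoxia range and the other 3 normoxia libraries lay below it. Spread was larger in normoxia (CV 44.6%) than in hyperoxia (CV 12.7%), and this difference in spread was not tested. The log2 fold change of 0.54 (SE 0.258) did not pass (edgeR adjusted p = 0.129). Without normoxia 3 it was 0.85 (adjusted p = 0.00920), and without hyperoxia 3 it was 0.60 (adjusted p = 0.127). The higher leukocyte marker sums of normoxia 3 given above stand beside this value too, and their part in it was not tested. Cd55 shares 2.11% of its windows with Cd55b, which had 2 counts in all, and 2.10% of its exon bases lie opposite Gm16083, which averaged 0.0846 CPM.

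Of 5 other membrane regulators, 3 were tested and 1 passed. Susd4, which encodes a membrane protein that inhibits complement activation, stood at 0.980, 0.740, 1.23 and 0.773 CPM in normoxia and at 3.54, 3.57, 2.80 and 3.94 CPM in hyperoxia. The groups were well apart, with a log2 fold change of 1.89 (SE 0.222, edgeR adjusted p = 9.7e-05). Cr1l, named after its values were seen, encodes Crry, the main rodent membrane regulator of C3. It averaged 108 ± 3.77 CPM in normoxia and 109 ± 2.07 CPM in hyperoxia. Its log2 fold change was 0.02 (SE 0.0420, edgeR adjusted p = 0.769). Cd46, also named afterwards, had -0.17 (SE 0.157, adjusted p = 0.433).

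The receptors for complement fragments were mostly low. Of 8, 7 were tested and 1 passed. Itgax, the alpha chain of complement receptor 4 and a marker of dendritic cells and alveolar macrophages, stood at 2.76, 1.88, 3.24 and 2.21 CPM in normoxia and at 9.08, 5.32, 4.12 and 4.33 CPM in hyperoxia. Its groups did not overlap, and its log2 fold change was 1.18 (SE 0.279, edgeR adjusted p = 0.00738). C5ar1, the main receptor of C5a, averaged 2.68 ± 1.64 and 4.10 ± 1.95 CPM, with a log2 fold change of 0.61 (SE 0.433, edgeR adjusted p = 0.304). It was 0.31 without hyperoxia 1 and 1.09 without normoxia 3, and passed in neither case (adjusted p = 0.640 and 0.0616). C5ar2, the second C5a receptor, had 0.13 (SE 0.325, adjusted p = 0.790), and C3ar1, the receptor of C3a, had 0.14 (SE 0.321, adjusted p = 0.762). None of the 3 anaphylatoxin receptors passed, and the SEs leave their changes poorly defined.

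Taking the 47 complement genes other than the 9 together, 25 were tested, 7 were higher and 1 was lower in hyperoxia, or 32.0% of those tested, beside 35.6% of all genes. The median log2 fold change of the 25 was 0.29. With the fold change threshold 6 of the 25 passed, namely Masp1, Fcna, C6, Susd4, Itgax and Cfi, beside 6.98% of all genes tested. Among these, Fcna, C6 and Cfi were low genes that a filter of 1 CPM in 4 libraries left untested. The remaining 22 of the 47 were too low to be tested, and 5 of them had no count in any library. A filter on low counts keeps a low gene through the group in which it is high, so counts over the genes tested do not describe the whole list.

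**Figure D3:**
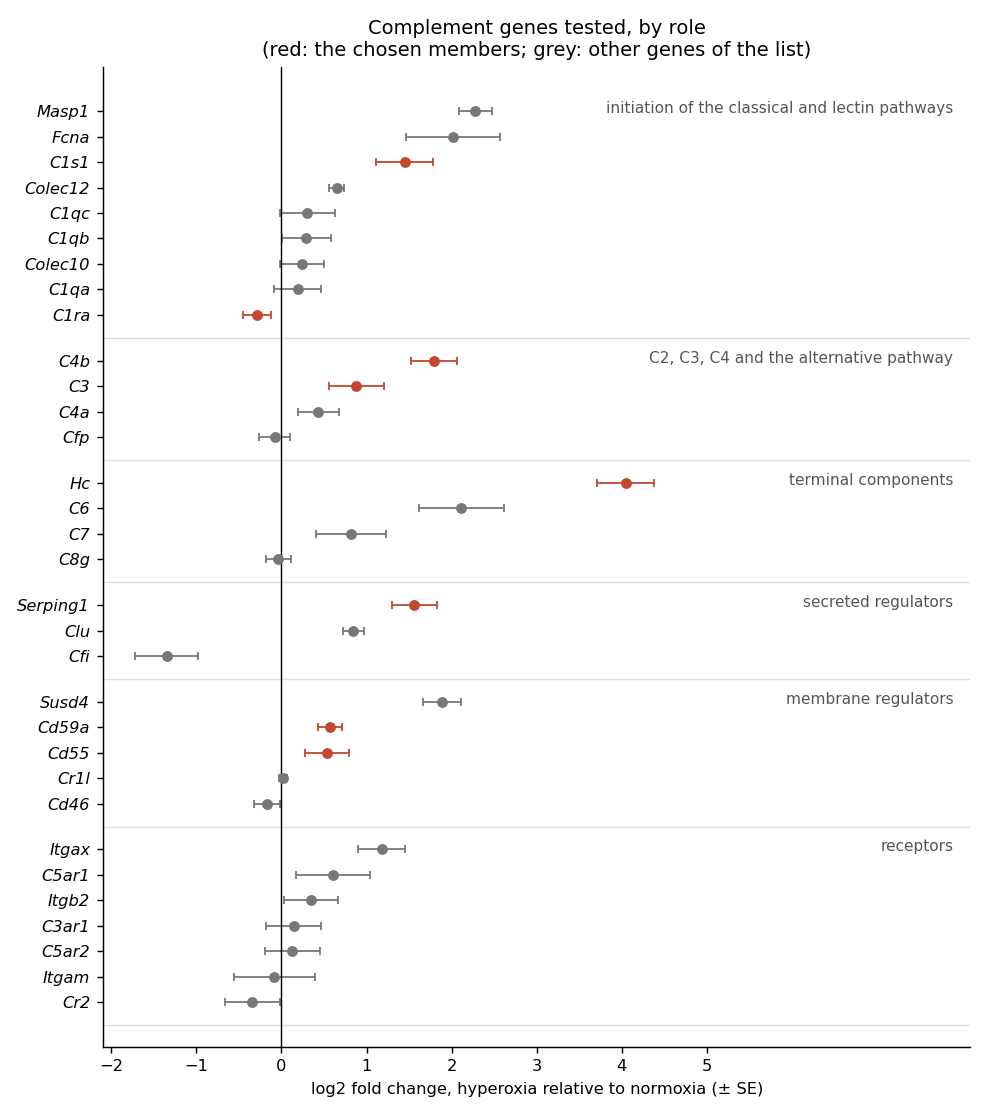
Log2 fold change of hyperoxia relative to normoxia for tested complement genes, grouped by role and ordered within each role, with bars of ± 1 SE. Red marks the 9 genes described other than Cfb, which was not fitted, and grey marks the others. Hc, Masp1, C6 and Fcna lie to the right of 2, and Cfi lies lowest at -1.35.

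To compare levels between genes, the FPKM values were used, which divide counts by gene length. In normoxia the order of mean level was Serping1 (3.76 FPKM), C1ra (3.49), Cd59a (3.01), Cd55 (2.19), C3 (1.43), Hc (0.814), C1s1 (0.344), C4b (0.306) and Cfb (0.104 FPKM). Neighbours in this order had overlapping ranges, except that Hc was above C1s1 and C4b above Cfb in every library. In hyperoxia the order was Hc (13.4 FPKM), Serping1 (11.1), Cd59a (4.48), Cd55 (3.19), C1ra (2.86), C3 (2.64), C4b (1.07), C1s1 (0.940) and Cfb (0.160 FPKM). Hc and Serping1 overlapped, at 5.58 to 16.6 and 6.44 to 16.9 FPKM. The clear steps were those from Serping1 to Cd59a, from Cd59a to Cd55 and from C1s1 to Cfb. Thus Hc, which stood below C3 and all 3 regulators in normoxia, had the highest mean in hyperoxia, next to Serping1.

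**Figure D4:**
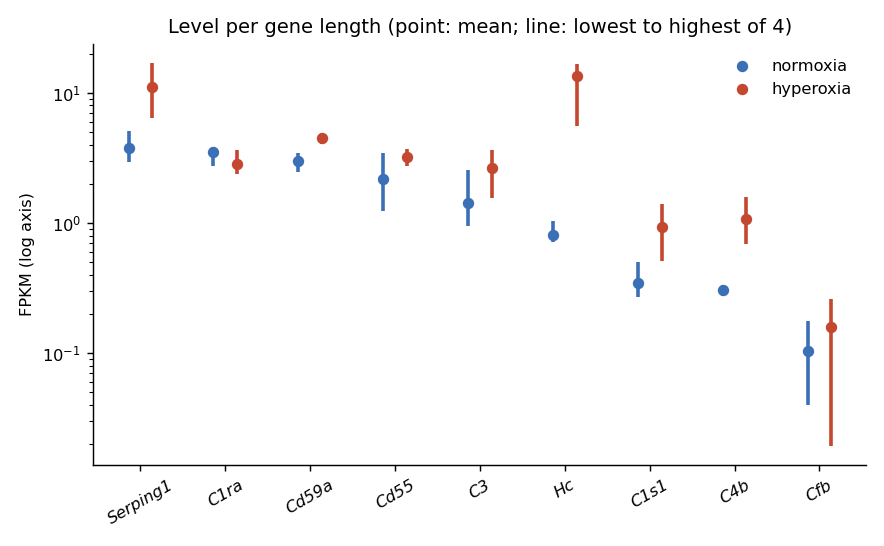
Level of the 9 genes in FPKM on a log axis, with points for the mean and lines from the lowest to the highest of 4 libraries (normoxia blue, hyperoxia red), in the normoxia order. Hc rises from 0.814 to 13.4 FPKM to stand beside Serping1 (11.1 FPKM), and Cfb is lowest in both groups, with the doubt on its counting given above.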

How the data were processed

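Bulk RNA-seq libraries of lung ECs isolated with CD45-coated and then CD31-coated beads were sequenced paired-end on a NovaSeq. The authors deposited whole-number counts per gene and FPKM values of the same 54532 genes and 8 libraries. The submitters' processing notes name HISAT2 2.0.5, featureCounts 1.5.0-p3 and build mm10. Strand setting, treatment of multi-mapping reads and the annotation release were not given in the sources used here. Coordinates of the 9 genes were the same in GENCODE M21 (GRCm38). Libraries were grouped by their titles.

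Counts of 15564 genes kept by filterByExpr, at least 99.8% of each library, entered edgeR 4.0.16 (quasi-likelihood test, R 4.3.3, TMM scaling, group as the only term, Benjamini-Hochberg adjustment, threshold 0.05). The study used DESeq2. CPM used TMM-scaled library sizes. SEs follow from the F statistic. As no source used here says that libraries came from separate animals, p-values measure only the spread between these samples. The depth of 16098086 to 18300730 counts left genes under about 1 CPM with few counts. The 24250 genes without counts were left out. No column of per-sample values lay outside the 8 libraries.

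The 9 genes, the 56-gene complement list, the 11 marker lists and the tests were chosen with earlier results of these data known. Named genes were the 9, their close copies, C3ar1, C5ar1 and C5ar2, other complement genes past the threshold, up to 3 most abundant markers per list and the 5 genes nearest to Hc. The results of 2 genes are not reported here. Others are said to be named after their values were seen. Close copies were compared by shared 150-base windows of GENCODE transcripts. Upstream windows came from RefSeq. Alternatives were other scalings and filters, DESeq2 1.42.0, limma 3.58.1 (voom, and log2 of FPKM + 0.1), the replicate number as a block, protein-coding genes only and leaving out each library. Scripts were tested on simulated data.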

Additional observations from a re-analysis of the deposited data

Results flagged for a closer look

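In each group of 4 libraries, the highest or lowest value was marked when its gap to the next value, as a share of the whole range, exceeded a limit that chance passes in about 1 of 20 groups. Of 56 groups examined (genes and marker sums, each in normoxia and in hyperoxia), 8 passed, where 2.8 would be passed by chance. The groups come from the same libraries and are not independent, so 8 beside 2.8 is no test of an excess. Of the 8 that passed, 5 were levels of the genes described. Hc was lowest in hyperoxia 3, at 35.0 CPM, while its group otherwise spanned 95.3 to 105.0 CPM, and highest among normoxia libraries in normoxia 1, at 6.55 CPM against 4.53 to 4.84 CPM. C3 stood at 13.2 CPM in normoxia 3, against 4.95 to 6.02 CPM in the other normoxia libraries. C1s1 stood at 1.59 CPM in normoxia 1, against 0.854 to 0.951 CPM, and C1ra was lowest there, at 8.20 CPM against 11.0 to 11.4 CPM.

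The other 3 were marker sums. In hyperoxia 3 the alveolar type 1 markers summed to 170 CPM (436 to 485 CPM elsewhere in the group), and the general epithelial markers to 17.9 CPM, against 53.2 to 59.7 CPM. In hyperoxia 1 the neutrophil markers summed to 86.9 CPM, against 17.4 to 23.0 CPM. The neutrophil sum of hyperoxia 1 stands beside the highest hyperoxia levels of C3 (18.8 CPM), C5ar1 (6.45 CPM) and Itgax (9.08 CPM) in the same library. Hyperoxia 1 also had the highest hyperoxia sums of macrophage or monocyte (528 CPM), lymphocyte (68.5 CPM) and alveolar type 2 markers (2413 CPM). The same held for alveolar type 1 (485 CPM), general epithelial (59.7 CPM) and mesothelial markers (2.0 CPM). The part of any of these cells in those levels was not tested.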

How the results depend on the processing

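The 17 alternatives gave 437 values for 26 genes, of which 425 kept their direction and their side of the threshold, 8 moved past the threshold and 4 changed sign. The 425 include the 17 values of Hc, which was described without a test, so for Hc only the direction applies. C4b, C1s1, Cd59a and Serping1 passed in all 17. The log2 fold change of Hc ranged from 3.78 to 4.30. C3 passed in 4 of 17 (adjusted p 0.00316 to 0.143), among them no count filter (0.0119) and limma-voom (0.0465). The 4 sign changes were in genes that did not pass, namely Cr1l with upper quartile scaling (-0.0026), C3ar1 without normoxia 2 (-0.040) or hyperoxia 4 (-0.081), and C5ar2 without normoxia 4 (-0.070). Over single libraries left out, C3ar1 ranged from -0.081 to 0.35 and C5ar2 from -0.070 to 0.29. A filter of 1 CPM in 4 libraries left 5 of the 8 other complement genes past the threshold, because Fcna, C6 and Cfi were then not tested. Leaving out 1 library at a time gave 4526 to 5445 genes over all genes tested, 4 to 6 of the 8 genes other than Hc and 8 to 10 of the other complement genes. With the replicate number as a block, 4792 genes passed (5535 without it), and the counts of 4 genes other than Hc and 8 other complement genes were the same. Deviations of same-numbered libraries correlated at 0.119, 0.036, -0.125 and -0.140, and not every library correlated best with its own number. These values cannot show whether same-numbered libraries shared a litter or a batch, and the labels do not say. The pairing was therefore not used. Counts were few for Cfb (21 in normoxia and 32 in hyperoxia), while for C5ar1 the spread between libraries (CV 61.0% and 47.5%) was large.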
